A study of Mus musculus with 4 samples.

Results

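The enzymes that make serine from a glycolytic intermediate and the enzymes that pass its carbon into the folate pool were measured in mouse liver and white adipose tissue (WAT). The set held 9 genes, chosen by their symbols: the serine synthesis enzymes Phgdh, Psat1 and Psph, the mitochondrial folate enzymes Shmt2, Mthfd2 and Mthfd1l, and the cytosolic folate enzymes Shmt1, Mthfd1 and Ftcd. They were read by 14 of the 39429 different probes that were not controls, and made up 9 of the 22327 genes with a symbol. The study had 4 groups, each on the C57BL/6N background and aged 4 weeks: wild-type liver, liver labelled Pnpla7-/-, wild-type WAT and WAT labelled Pnpla7-/-. PNPLA7 is a lysophospholipase. RNA from 5 animals was pooled for each group and hybridised to 1 array, so no difference below has a replicate check and no p-value is given. The labels give neither the WAT depot nor the part of Pnpla7 that was disrupted, and the stated extraction protocol names livers alone. The Pnpla7 probe gave log2 ratios of labelled knockout to wild type of -0.18 in liver and -0.99 in WAT. Whether that probe lies in the disrupted part is not known, so every direction below follows the labels, and the term labelled knockout is used.

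PHGDH, PSAT1 and PSPH convert 3-phosphoglycerate to serine in sequence. Serine hydroxymethyltransferases then split serine into glycine and a carbon unit carried by tetrahydrofolate, SHMT2 in mitochondria and SHMT1 in the cytosol. In mitochondria MTHFD2 oxidises the unit and MTHFD1L releases it as formate, which leaves the organelle and is taken up by the cytosolic trifunctional enzyme MTHFD1 for purine, thymidylate and methionine synthesis. FTCD, an enzyme abundant in liver, loads the folate pool from formiminoglutamate, a product of histidine breakdown. Adult liver is known for high levels of SHMT1, MTHFD1 and FTCD, while MTHFD2 is best known from embryonic and proliferating cells.

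Levels are log2 of the scanner's processed spot intensity minus the array's 75th percentile, so that 0 marks the 75th percentile, and a level is compared only with the same gene's level on another array. A ratio is the difference of such levels, averaged over the gene's probes, and it was counted when it reached 2-fold, a log2 ratio of 1. All 14 probes were well above background on all 4 arrays and 0 were saturated, so each of the 9 genes had a value everywhere and no member was lost to the filter. The scanner's error model put the error of a single-probe ratio at a median of 0.20 on the log2 scale. For bright spots that value follows from a multiplicative error of 0.1 set in the model and is not a measured spread. Across all genes with several probes, the pooled SD between probes of 1 gene was 0.20 for the liver knockout ratio and 0.23 for that of WAT. These errors cover spots and probes, not animals. The error of a group mean carries the model errors of its genes and not the spread between them. On wild-type arrays, 20 of 20 hepatocyte markers were at least 2-fold lower in WAT than in liver, and 10 of 11 measured adipocyte markers were at least 2-fold higher.

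In labelled-knockout liver all 3 serine synthesis genes were higher than in wild-type liver, by a mean log2 ratio of 1.85 (model error 0.10). Phgdh, which catalyses the committed step, stood at a level of -3.81 in wild-type liver, -1.23 in labelled-knockout liver, 3.47 in wild-type WAT and 2.61 in labelled-knockout WAT. It was thus low in both livers and high in both fat samples, and it was 5.96-fold higher in labelled-knockout than in wild-type liver (log2 ratio 2.57, error 0.16). Its probes gave 2.50 and 2.65. The ratio ranked 17 from the highest of 15568 measured genes. Of the 9 members 4 reached 2-fold upward and 0 downward in this comparison, against 1.75% and 0.886% of all genes. With normexp, another background correction, at an offset of 50 the Phgdh ratio was 1.49 and 3 members reached 2-fold upward.

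Phgdh signal could not be assigned to Phgdh alone. The target annotation of both its probes also lists the transcript of Gm8096, a transcribed pseudogene. The probe that starts at base 1603 of the Phgdh transcript lies at chr3:98117303-98117361 on the minus strand of mm9, as the scanner files place it. It is shown because part of it, in capitals, is an unbroken run of 21 bases that also stands in a further probe to which no gene symbol could be given.
Phgdh probe at base 1603: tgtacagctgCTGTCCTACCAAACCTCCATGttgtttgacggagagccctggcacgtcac
That unnamed probe matched it over 58 aligned bases with 5 mismatches, and its log2 ratios were 2.58 in liver and -0.84 in WAT. The Phgdh probe itself gave 2.65 and -0.84. The other Phgdh probe, at base 1690, shares a longer run of 35 bases with another unnamed probe. Those probes had 1 mismatch over 49 aligned bases. The log2 ratios of that unnamed probe were 2.43 in liver and -0.85 in WAT. The Gm8096 probe had levels of -4.95 and -3.18 in wild-type and labelled-knockout liver and of 1.20 and 0.29 in the WAT pair. Its order over the 4 arrays was that of Phgdh. How much of the Phgdh signal came from either transcript was not tested.

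Psat1, the aminotransferase of the second step, stood at -3.62 in wild-type liver, -1.58 in labelled-knockout liver, 1.39 in wild-type WAT and 1.81 in labelled-knockout WAT. Its liver ratio was 4.13-fold, with a log2 value of 2.05 and an error of 0.19, and its log2 value was 1.03 with normexp at an offset of 50. The probes of Psat1 agreed in direction and differed in size, at 1.61 for the probe at base 750 and 2.49 for the probe at base 2226. The former lies at chr19:15991586-15991645 on the minus strand of mm9 and is shown as the probe with the smaller ratio.
Psat1 probe at base 750: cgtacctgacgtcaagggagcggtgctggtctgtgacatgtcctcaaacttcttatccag
This probe was dim in wild-type liver, with a processed intensity of 41.3 there and 151 in labelled-knockout liver. The probe at base 2226 read 344 and 2313. Psph, the phosphatase that releases serine, had levels of -1.0, -0.09, 1.23 and 1.42 in the same order of arrays. It was 1.89-fold higher in labelled-knockout liver, just inside 2-fold, and its probes gave 0.89 and 0.94. The ratios decreased in the order of the pathway, from Phgdh to Psat1 to Psph. The step from Psat1 to Psph exceeded the model errors, whereas the step from Phgdh to Psat1 was smaller than the gap between the Psat1 probes. With normexp at an offset of 50 the step from Psat1 to Psph was narrower, at 1.03 and 0.75.

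The mitochondrial folate genes did not move as a group in liver. Mthfd2, the dehydrogenase and cyclohydrolase, stood at -5.72 in wild-type liver, -3.52 in labelled-knockout liver, -3.08 in wild-type WAT and -3.25 in labelled-knockout WAT. Wild-type liver was the low array, and labelled-knockout liver lay close to both WAT arrays. The liver ratio was 4.60-fold (log2 2.20, error 0.34) from 1 probe. In wild-type liver that probe was close to background, with a raw spot mean of 102 against 63.0 for the negative controls (SD 11.7), while it read 257 against 69.5 in labelled-knockout liver. With normexp the Mthfd2 liver ratio was 0.24 at an offset of 50 and 0.35 at an offset of 1. With the mean of the negative controls subtracted from the raw spot mean it was 2.02. Its size is therefore uncertain.

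Mthfd1l, which releases formate, stood at -2.19 in wild-type liver, -0.59 in labelled-knockout liver, -2.84 in wild-type WAT and -2.95 in labelled-knockout WAT. Here labelled-knockout liver was the high array. The liver ratio was 3.02-fold (log2 1.59, error 0.15), with probes at 1.56 and 1.63, and it stayed at 1.15 with normexp at an offset of 50. Shmt2, which supplies the mitochondrial carbon unit from serine, had levels of 3.18 and 2.90 in the livers and -0.56 and -0.72 in WAT. Its liver ratio was -0.28 with an error of 0.20, so it did not share the higher level of Mthfd2 and Mthfd1l.

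The 3 cytosolic folate genes were all lower in labelled-knockout liver, and none reached 2-fold. Shmt1 stood at 0.91 in wild-type liver and 0.18 in labelled-knockout liver, and it was 1.65-fold lower (log2 ratio -0.72, error 0.14), with probes at -0.78 and -0.67. Mthfd1 stood at 4.70 and 4.22, a log2 ratio of -0.48 (error 0.20). Ftcd stood at 5.66 and 5.44, a log2 ratio of -0.22 with an error of 0.20, close to its error. Quantile normalization put the Ftcd ratio at -0.03. The median of all genes was -0.03. With normexp at an offset of 50 the Ftcd ratio was -0.12 and the median of all genes -0.19, so Ftcd was not below the typical gene there.

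Set against each other, the mitochondrial genes averaged a liver log2 ratio of 1.17 (error 0.14) and the cytosolic genes -0.47 (error 0.11), a difference of 1.64 with an error of 0.18. Without Ftcd the difference was 1.77. Mthfd2 and Mthfd1l carried it, since Shmt2 lay between Mthfd1 and Ftcd. With normexp at offsets of 50 and 1 the difference was 0.78 and 0.86.

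**Figure D1:**
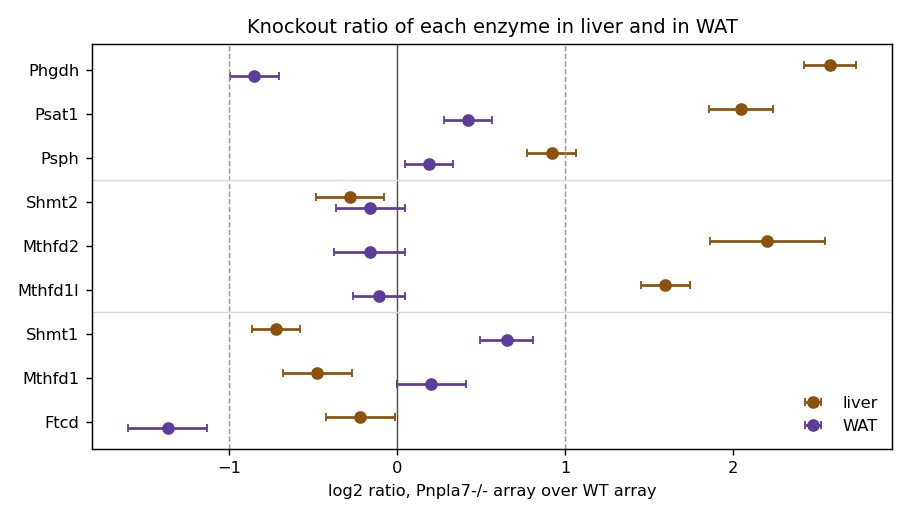
Log2 ratio of the labelled Pnpla7-/- array to the wild-type array for each enzyme in liver (brown) and WAT (purple), with bars for the model error of the scanner software and dashed lines at 2-fold. In liver Phgdh, Psat1, Mthfd2 and Mthfd1l lie beyond 2-fold and the 3 cytosolic folate genes lie below 0, whereas in WAT Ftcd alone lies beyond 2-fold.

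Proliferation markers moved with these genes in liver. Of 15 measured markers 13 reached 2-fold in labelled-knockout liver, none of them downward, and the median log2 ratio was 1.41. Their summed level, in units of the 75th percentile, was 12.8 in wild-type and 23.7 in labelled-knockout liver. Hepatocyte markers had a median of -0.26, with 0 of 20 beyond 2-fold, and macrophage markers a median of 0.11, with 2 of 11 at least 2-fold higher. A further macrophage marker, Gpnmb, had no ratio, being well above background in labelled-knockout liver but not in wild-type liver. Adipocyte markers had a median of 0.11, with 2 of 10 measured at least 2-fold higher and 0 lower. The part of these cells in the serine and folate ratios was not tested. In whole tissue, fewer cells of a type and less RNA per cell cannot be told apart.

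In WAT the labelled knockout and the wild type differed little for most of the 9 genes. At 2-fold 0 members were higher and 1 was lower, Ftcd, against 2.16% and 2.01% of all 16131 measured genes. Ftcd stood at -2.56 in wild-type WAT and -3.93 in labelled-knockout WAT, 2.58-fold lower (log2 ratio -1.37, error 0.23). Both WAT levels were far below those of liver. Hepatocyte markers went in both directions, most of them downward. Of 19 measured, 9 were at least 2-fold lower in labelled-knockout WAT, with Ttr at -1.62, Alb at -1.58 and F2 at -1.56, and the median was -0.87. Cyp2e1 at 0.97, Hpd at 0.49, Trf at 0.28 and Apoc3 at 0.22 were higher. The summed level of the hepatocyte markers went from 170 to 226. Most of that sum came from Cyp2e1, at levels of 5.89 and 6.86 in the WAT pair, and Trf, at 6.30 and 6.57. It therefore does not describe the rest of the list. The part of the hepatocyte markers in the Ftcd ratio was not tested. With normexp at an offset of 50 the Ftcd ratio was -0.91, inside 2-fold.

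Phgdh was 1.80-fold lower in labelled-knockout WAT (log2 ratio -0.85, error 0.14), the opposite sign to liver, with probes at -0.86 and -0.84. Quantile normalization put it at -1.01, just past 2-fold. Psat1 and Psph did not follow it, with log2 ratios of 0.42 and 0.19, and the mean of the 3 serine synthesis genes was -0.08 with an error of 0.08. Shmt1 was 1.57-fold higher in labelled-knockout WAT (log2 ratio 0.65, error 0.16), again the opposite sign to liver. Its probes gave 0.33 for base 394 and 0.97 for base 1584, so the size depended on the probe.
Shmt1 probe at base 394: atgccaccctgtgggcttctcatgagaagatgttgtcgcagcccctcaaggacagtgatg
This probe, shown as the one with the smaller ratio, lies at chr11:60620453-60620512 on the minus strand of mm9. Mthfd1 was at 0.20, Shmt2 and Mthfd2 at -0.16 and Mthfd1l at -0.11, each within about its model error. The mitochondrial genes averaged -0.14 and the cytosolic genes -0.17, so the difference between compartments was 0.03 with an error of 0.16. That small difference rested on Ftcd, and without it the value was -0.57. With the brightest probe of each gene it was -0.12, so its sign is not settled.

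The WAT pair differed in its cell markers. All 16 skeletal muscle markers were at least 2-fold higher in the labelled knockout, with a median log2 ratio of 3.46 and a summed level of 6.79 against 71.9. Of 11 thermogenic adipocyte markers 8 were at least 2-fold higher, among them Elovl3 at 5.05 and Ucp1 at 3.04, while adipocyte markers had a median of 0.16. Of 8 measured biliary and epithelial markers 3 were at least 2-fold higher, led by Wfdc2 at 6.87. Macrophage markers had a median of -0.54, with 1 of 11 at least 2-fold higher (Gpnmb, 1.11) and 1 lower (Lyz2, -1.18), and endothelial and stellate markers a median of -0.45. Proliferation markers, which were higher in liver, had a median of -0.00 and 0 of 15 beyond 2-fold. The part of these cells in the WAT ratios of the enzymes was not tested.

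The knockout ratio in WAT minus that in liver was -3.43 for Phgdh, -2.37 for Mthfd2, -1.70 for Mthfd1l, -1.63 for Psat1, -1.15 for Ftcd and -0.73 for Psph. It was 0.12 for Shmt2, 0.68 for Mthfd1 and 1.37 for Shmt1. By this measure 5 of the 9 members passed 2-fold downward and 1 upward, against 4.63% and 3.51% of the 14896 genes measured on all 4 arrays. Shmt1 and Mthfd1 were lower in liver and higher in WAT, a pattern of 32.6% of those genes. Phgdh, Mthfd2 and Mthfd1l were higher in liver and lower in WAT, which held for 24.1%. With 1 array per group, these differences were not tested.

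**Figure D2:**
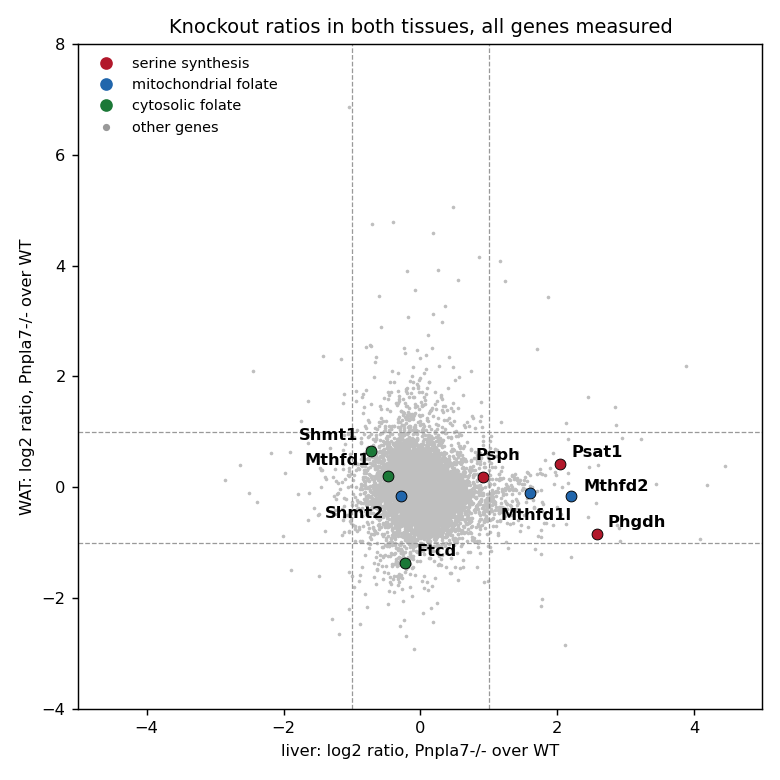
Log2 ratio of labelled knockout to wild type in liver (horizontal) and in WAT (vertical) for every gene measured on all 4 arrays (grey), with the 9 enzymes coloured by role and dashed lines at 2-fold. Phgdh, Psat1, Mthfd2 and Mthfd1l lie to the right of the liver line at WAT ratios between -0.85 and 0.42, and Shmt1 and Mthfd1 lie to the upper left of the origin.

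The tissues were then compared within each genotype. On the wild-type arrays 4 members reached 2-fold in favour of WAT and 4 in favour of liver, against 18.1% and 15.6% of all 15305 measured genes. The 3 serine synthesis genes were all higher in WAT, by 155-fold for Phgdh, 32.2-fold for Psat1 and 4.69-fold for Psph. The cytosolic folate genes were all lower, by 299-fold for Ftcd, 28.6-fold for Shmt1 and 11.3-fold for Mthfd1. Shmt1 probes gave log2 ratios of -5.77 and -3.91, a spread larger than the pooled SD of 0.67 between probes of a gene in this comparison. The mitochondrial genes split. Shmt2 was 13.3-fold lower in WAT, Mthfd1l 1.58-fold lower and Mthfd2 6.22-fold higher. The Mthfd2 ratio again used its dim wild-type liver spot and was 0.57 on the log2 scale, not 2.64, with normexp at an offset of 50.

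On average the mitochondrial folate genes had a log2 ratio of WAT to liver of -0.59 and the cytosolic genes -5.52 in wild type. The difference was 4.94 with a model error of 0.18, or 3.59 without Ftcd. That error leaves out the spread between genes, and the mitochondrial ratios ran from -3.74 to 2.64. The serine synthesis genes averaged 4.84 in the same comparison.

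**Figure D3:**
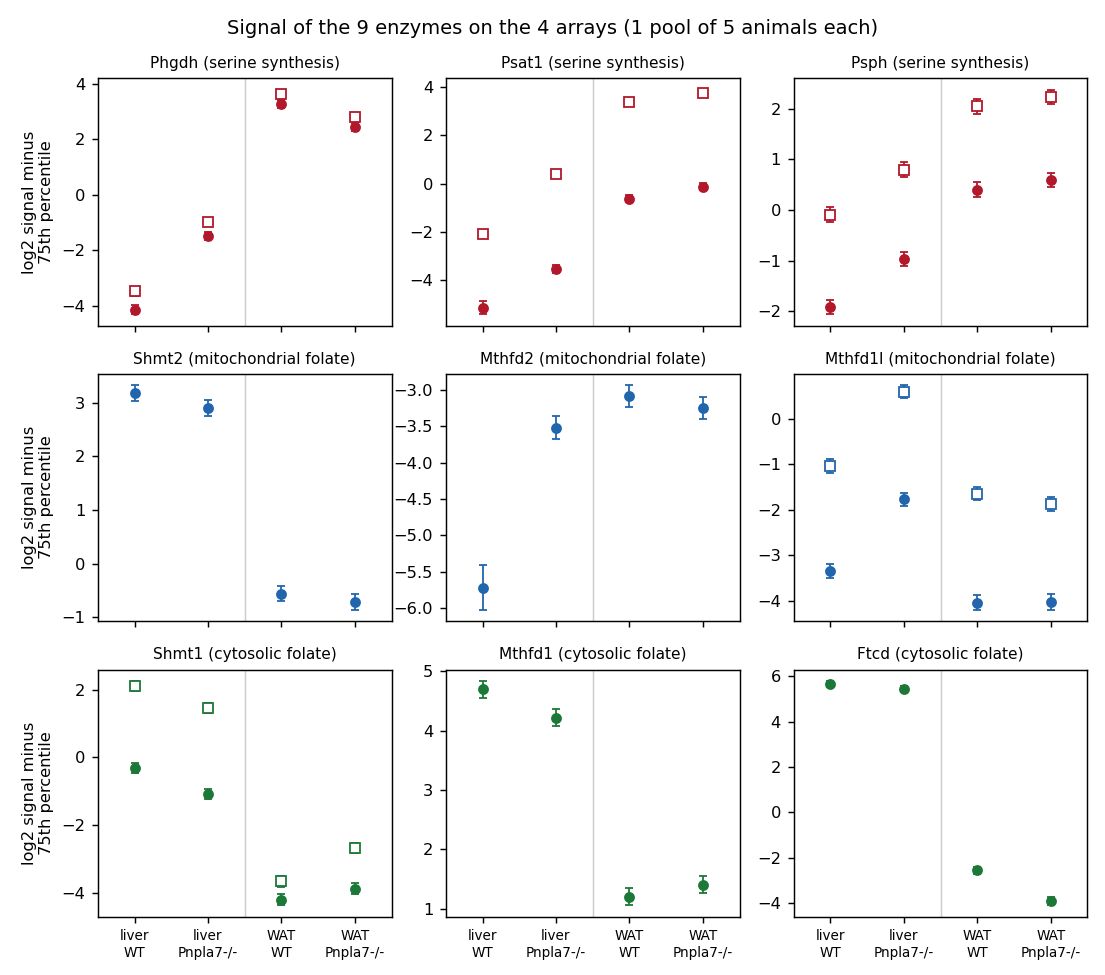
Level of each probe (log2 signal relative to the 75th percentile) on the 4 arrays, 1 panel per gene with its own vertical scale, filled circles and open squares for different probes of a gene, and bars for the scanner's model error. Serine synthesis genes sit higher in both WAT arrays than in both livers, Shmt2 and the cytosolic genes sit lower, and Mthfd2 is low in wild-type liver alone.

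The same contrast on the labelled-knockout arrays was narrower for serine synthesis. Phgdh was 14.4-fold, Psat1 10.4-fold and Psph 2.83-fold higher in WAT, and the mean log2 ratio was 2.91. In favour of WAT 3 members reached 2-fold and in favour of liver 5, against 17.7% and 13.7% of 15338 genes. Mthfd2 was nearly level between the tissues at 1.20-fold, and Mthfd1l was 5.13-fold lower in WAT. Shmt2 was 12.3-fold, Shmt1 11.1-fold and Mthfd1 7.08-fold lower. Ftcd was 663-fold lower, a wider gap than in wild type. The mitochondrial mean was -1.90 and the cytosolic mean -5.22, a difference of 3.32 with an error of 0.16, or 1.24 without Ftcd.

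Genes next to these enzymes in metabolism are given by lists. Among 19 other folate enzymes and carriers measured in liver, 0 were at least 2-fold different between genotypes and the median log2 ratio was -0.10. Aldh1l1, the cytosolic formyltetrahydrofolate dehydrogenase, was at -0.62. Its mitochondrial counterpart Aldh1l2 was not well above background in wild-type liver. On the processed signal it was at least 2.73-fold higher in labelled-knockout liver, where it was measured at a low level of -4.40. That bound was not recomputed with normexp, so it holds for 1 background correction only. Mthfd2l, the paralogue of Mthfd2, was at 0.01. Slc25a32, the mitochondrial folate carrier, was at -0.35, and Tyms, which uses folate for thymidylate, at 0.16. In WAT 2 of 20 were at least 2-fold lower between genotypes, the folate hydrolase Folh1 at -2.27 and the folate receptor Folr2 at -1.26. Macrophage markers had a median of -0.54 there, and their part in the Folr2 ratio was not tested.

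Genes of glycine cleavage and glycine use had a median liver ratio of -0.38, with 0 of 18 beyond 2-fold. The glycine cleavage enzyme Gldc was at -0.41 and the glycine methyltransferase Gnmt at -0.71. Serine use and transport genes had a median of -0.10 with 0 of 18 beyond 2-fold, and purine synthesis genes a median of 0.07 with 0 of 13. The list of histidine genes held 5, of which Hal, Uroc1 and Amdhd1 lead to the FTCD substrate, Hdc makes histamine and the last was Ftcd itself. Of these 1 was at least 2-fold lower in liver, the histidase Hal at -1.11, with Uroc1 at -0.63 and Amdhd1 at -0.55. In WAT Hdc, the histidine decarboxylase, was at 1.46 and the urocanate hydratase Uroc1 at -1.01. Of the 16 glycolysis genes, 1 was higher in labelled-knockout liver (Pfkp, 1.14) and 1 lower (Pklr, -1.08).

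Targets of the amino acid stress response outside the 9 enzymes were in part higher in labelled-knockout liver. Of 26 measured, 4 reached 2-fold upward and 0 downward, and the median was 0.27. They were Asns, the asparagine synthetase, at 3.22, Fgf21, a hepatic hormone, at 2.94, the stress regulator Nupr1 at 2.15 and the transcription factor Atf3 at 2.13. Within 2-fold, Aldh18a1 was at 0.86, Ddit3 at 0.62, Atf5 at 0.61, Trib3 at 0.60 and Sars at 0.43. Atf4 itself was at 0.20, Gdf15 at -0.03, Sesn2 at -0.12, Vldlr at -0.53, Cebpb at -0.65 and Chac1 at -0.73. In WAT 0 of 26 were higher and 1 was lower, Pycr1 at -1.41. Asns was at 0.87 there.

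**Figure D4:**
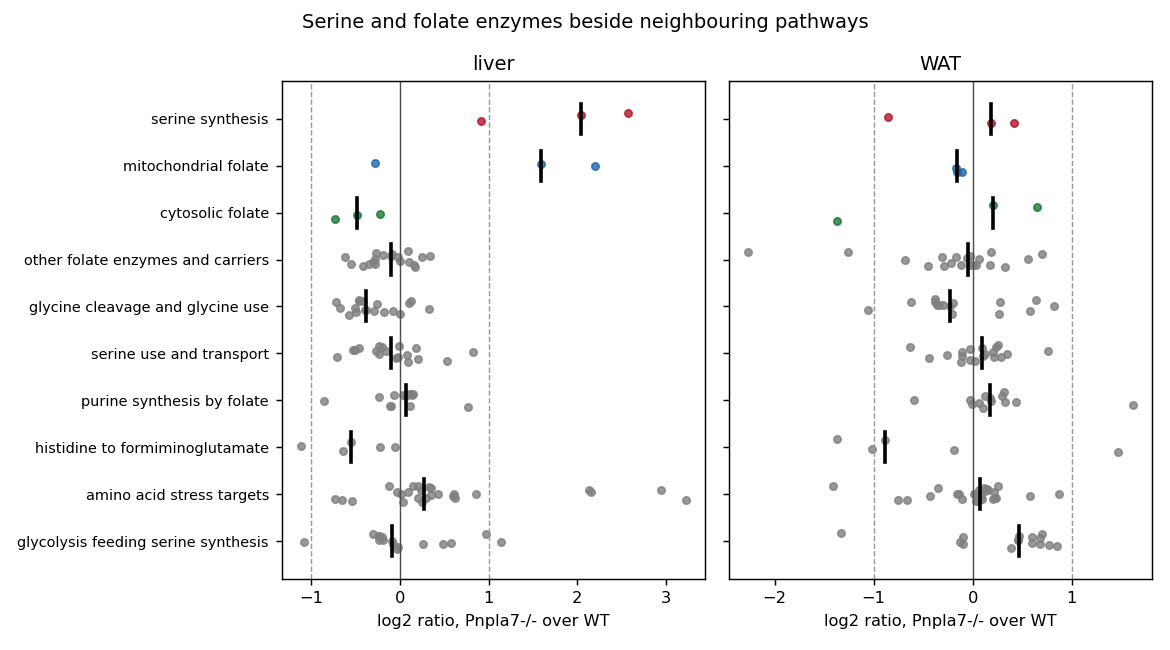
Log2 ratio of labelled knockout to wild type in liver (left) and WAT (right) for each measured gene of the 3 enzyme groups (coloured) and 7 neighbouring pathways (grey, the histidine list with Ftcd included), with a black bar at each median and dashed lines at 2-fold. In liver the medians of serine synthesis and mitochondrial folate genes (2.05 and 1.59) lie to the right of every neighbouring list, whose medians run from -0.55 to 0.27. The figure uses the processed signal alone. With normexp at an offset of 50, Shmt2, Mthfd2 and Mthfd1l were at -0.21, 0.24 and 1.15, so the mitochondrial median depends on the background correction.

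The neighbouring lists also differed between the tissues. On the wild-type arrays 16 of 18 glycine genes were at least 2-fold lower in WAT, with a median of -3.60, and so were all 5 histidine genes, Ftcd included. Of 18 serine use and transport genes 10 were lower, among them the serine dehydratase Sds at -8.92 and the cystathionine synthase Cbs at -6.85, and 1 was higher, the transporter Slc1a5 at 8.14. Slc7a10, a transporter of small neutral amino acids including serine, was not well above background in wild-type liver and was at least 1007-fold higher in WAT. Other folate genes were divided, 5 higher and 6 lower of 19. The polyglutamate synthase Fpgs, at -3.51, was lower in WAT. Sfxn3, a mitochondrial serine carrier, at 2.62 and Mthfd2l at 2.25 were higher.

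Likeness of profile was measured for 1 gene of each role as the Euclidean distance between levels on the 4 arrays, each gene centred on its own mean, over 14888 genes. Nearest to Phgdh was Gm8096 at a distance of 0.94, followed by Gprc5b at 1.12, Fry at 1.16, Sema3g at 1.31 and Strip2 at 1.33. Psat1 ranked 25, at 1.68. Nearest to Mthfd2 were Tes at 0.31, Gm4907 at 0.40, Epdr1 and Cntnap1 at 0.56 and Arhgap22 at 0.64, with Psph at rank 36. Shmt1 lay nearest to Tmem184a at 0.28, Gcdh at 0.33, Prg4 at 0.34, Cth, the cystathionine gamma-lyase, at 0.36 and Slc19a2, a thiamine carrier, at 0.39. Shmt2 ranked 88 and Mthfd1 176 for likeness to Shmt1, so the mitochondrial hydroxymethyltransferase stood closer to its cytosolic counterpart than to Mthfd2, from which it lay 5.42 away. These distances rest on 4 arrays and describe them only. Distances to Mthfd2 also use its dim wild-type liver spot, and they were not recomputed with normexp.

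The promoters of members that differed together in liver were read from the RefSeq sequences of GRCm38.p6, which held all 9 genes in 10 windows of 300 bases, from 250 before to 50 after the start. Motifs were searched on both strands. CCAAT, the site of the factor NF-Y, stood in the windows of 6 of 9 members against 37.4% of 32851 promoters: Phgdh, Psat1, Psph, Mthfd2, Shmt1 and Mthfd1. It was thus present in genes that were higher and in genes that were lower in labelled-knockout liver, and in no window of Mthfd1l. The 100 bases before the start are shown for the 4 members at least 2-fold higher in liver and for Shmt1, the lowest, with CCAAT or its complement in capitals.
Phgdh, chr3:98339970-98340069, minus strand: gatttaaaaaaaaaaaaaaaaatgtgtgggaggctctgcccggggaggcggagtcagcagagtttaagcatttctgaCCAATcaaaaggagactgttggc
Psat1, chr19:15925060-15925159, minus strand: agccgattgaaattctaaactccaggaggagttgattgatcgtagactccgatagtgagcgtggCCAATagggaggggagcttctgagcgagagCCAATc
Mthfd2, chr6:83317605-83317704, minus strand: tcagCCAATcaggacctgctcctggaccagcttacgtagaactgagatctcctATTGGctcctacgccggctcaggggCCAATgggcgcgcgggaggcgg
Mthfd1l, chr10:3972975-3973074, plus strand: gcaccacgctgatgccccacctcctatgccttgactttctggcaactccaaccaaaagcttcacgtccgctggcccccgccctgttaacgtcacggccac
Shmt1, chr11:60811266-60811365, minus strand: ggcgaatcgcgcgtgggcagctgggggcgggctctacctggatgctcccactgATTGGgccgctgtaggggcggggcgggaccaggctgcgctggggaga
Mthfd2 has 3 such matches in this stretch and Psat1 has 2, Phgdh and Shmt1 have 1 each. TGATGNAA, a form of the element bound by ATF4 with C/EBP factors, stood in 3.97% of all promoters and in the windows of 0 of 9 members. TGACNNNGC, the core of the antioxidant response element, stood in 12.4% of promoters and in 2 of 9 members, Phgdh and Psph. CACGTG, an E-box (7.15% of promoters), and TGACGTCA, the cAMP response element (1.79%), stood in 0 of 9. No match of one motif overlapped a match of another in the members' windows. A match is a run of letters and no evidence of binding, and no match says only that these letters are not in these windows.

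**Figure D5:**
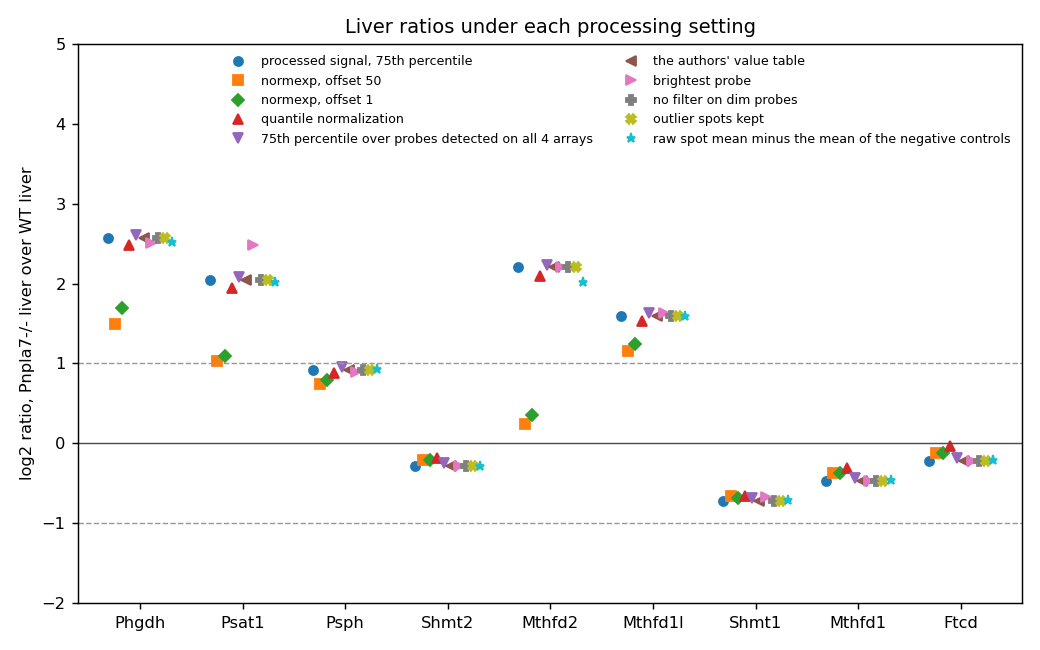
Liver log2 ratio of labelled knockout to wild type for each enzyme under 10 processing settings, with dashed lines at 2-fold. Normexp (orange squares, green diamonds) gives smaller ratios for Phgdh, Psat1, Mthfd1l and above all Mthfd2 (0.24 and 0.35), while the sign of every enzyme against 0 is kept under all 10. Against the median of all genes it is not, since normexp puts that median at -0.19 and -0.20 and Ftcd at -0.12 and -0.13.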

How the data were processed

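Per the labels, 200 ng of Cy3-labelled RNA pooled from 5 animals was hybridised to each of 4 one-colour Agilent mouse arrays. The deposited intensities were extracted from the scans with Agilent Feature Extraction 11.0.1.1, per the submitters' processing notes. Per the file headers, they were corrected for background within each array, and probes were placed on mm9. The authors' value table, used as an alternative, holds linear ratios of that signal to 1 constant per array (1470, 1764, 1690 and 1613), as the scanner files show. Its column medians were 0.0737, 0.0751, 0.0876 and 0.0875.

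From the intensities, the log2 of the processed signal was taken and each array's 75th percentile, from all spots but controls, subtracted with Python 3.11.15. Outlier spots were left out. A probe entered a ratio if, on each array of the pair, over a 0.5 share of its spots passed the scanner's flag for well above background and 0 were saturated. Probes of a gene were averaged. Between 65.5% and 72.6% of spots were well above background, and precision is limited by the number of arrays. Genes were named by the RefSeq table of GRCm38.p6, used for names and promoters only: 27234 probes matched by accession, 3576 by symbol and 565 by synonym, and 8054 by none. For lower bounds, the dim side was taken as the lowest detected signal of that array or the gene's own, whichever was higher. Repeat spots differed by a median SD of 0.05. Alternatives were normexp (limma 3.58.1, offsets 50 and 1), quantile normalization, the percentile over probes detected on all 4 arrays, the authors' table, the brightest probe, no filter, outliers kept and a 1.5-fold limit. Subtraction of the negative controls was chosen after seeing the data. The steps were tested on simulated data. The 9 members and all lists were chosen with earlier results of these data known. Besides the members, up to 4 genes per pathway list and comparison with the largest ratios past 2-fold, up to 3 per marker list and the 5 nearest profiles were named by rule. Genes within 2-fold and those given as bounds were chosen after their values were seen. A gene that met this rule is not reported here.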

Additional observations from a re-analysis of the deposited data

Results flagged for a closer look

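For 5 of the 9 enzymes the knockout ratio had opposite signs in the tissues, which drew attention to them. Opposite signs were common among all genes. Of the 14896 genes measured on every array, 24.1% were higher in labelled-knockout liver and lower in labelled-knockout WAT. A further 32.6% were lower in liver and higher in WAT, so opposite signs alone do not set the enzymes apart. The log2 ratio in WAT minus that in liver was -3.43 for Phgdh, -2.37 for Mthfd2 and -1.70 for Mthfd1l, each higher in labelled-knockout liver and lower in labelled-knockout WAT. It was 1.37 for Shmt1 and 0.68 for Mthfd1, both lower in liver and higher in WAT. With 1 array per group, none of these differences was tested. For Mthfd2, Mthfd1l and Mthfd1 the WAT ratio was no larger than its model error (0.21, 0.16 and 0.20), so its sign is not settled.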

How the results depend on the processing

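Of the 16 counts and group values, 1 changed sign: the mitochondrial minus cytosolic value in WAT, within its error of 0.16, was 0.03 and became -0.12 with the brightest probe. Means below are log2 ratios. In liver, the serine synthesis mean of 1.85 was 1.09 and 1.19 with normexp at offsets of 50 and 1, and 1.96 with the brightest probe, and the mitochondrial minus cytosolic value of 1.64 was 0.78 and 0.86 with normexp. For WAT against liver in wild type, the serine mean of 4.84 was 3.93 and 4.13 with normexp and 4.95 with the percentile over detected probes, and the compartment difference of 4.94 was 3.82 and 4.04 with normexp, 4.64 with quantile normalization and 5.26 with the brightest probe. In the labelled knockout, normexp at an offset of 50 put 2.91 at 2.75 and 3.32 at 3.06, and the brightest probe put 3.32 at 3.50. Members at least 2-fold lower in WAT numbered 1, against 0 with normexp at an offset of 50 and 2 with quantile normalization. At 1.5-fold, 1 was lower in liver, and 2 were lower and 1 higher in WAT. Psph, 1.89-fold higher in labelled-knockout liver, also passed 1.5-fold, as did Mthfd1l, 1.58-fold lower in wild-type WAT than in wild-type liver.

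Normexp lowered the median of all genes in liver from -0.03 to -0.19 at an offset of 50 and -0.20 at an offset of 1. It called 103 genes higher and 242 lower, or 112 and 1440, against 273 and 138. For WAT against liver in wild type it called 1825 and 2381, or 1945 and 3195, against 2775 and 2380. The cause was not tested. The authors' table, no filter, outliers kept and subtraction of the negative controls, the last chosen after seeing the data, moved none of the 16 values beyond its error. No paired analysis was possible because each group had 1 array and the labels carry no replicate numbers. No replicate could be left out for the same reason. Mthfd2 in wild-type liver is limited by signal over background.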
